A study of Homo sapiens with 2 samples.

Results

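A set of 10 genes of nicotinamide, steroid, carbonyl and quinone metabolism is described here across the cell lines of 1 pooled long-read single-cell library. The genes are NNMT, DHRS2, HSD17B2, AKR1B1, AKR1C1, AKR1C2, AKR1C3, ALDH1A1, NQO1 and GSTP1. They were chosen by symbol in the deposited transcript annotation, where they make up 10 of 57110 gene entries and 25 of 99493 transcripts. None of the 10 shares its entry with another gene.

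The study pooled 3 established human ovarian cancer lines, IGROV1, SK-OV-3 and COV504, at a 1:1:1 ratio, to benchmark Isosceles, a package that discovers and quantifies transcripts from long reads. The labels name no treatment and no engineered allele. One library of the pool was sequenced on an Illumina instrument and 1 on a PromethION nanopore instrument, and all 2462 barcodes of the nanopore list were also in the Illumina list. Values came from the PromethION library alone, which held 13052893 estimated counts with a median of 4914.5 per barcode.

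The library does not say which line a barcode came from, so cells were grouped by marker genes. A barcode of at least 1000 counts joined a group when at least 75% of its marker counts belonged to that group. The 502 cells with ERBB2 and TSPAN1 are called SK-OV-3-like, since SK-OV-3 is known for amplified ERBB2. Neighbours of ERBB2 were higher there too, with MIEN1 at 556 counts per 1000000 (CPM) against 148 and 110 in the other lines, and STARD3 at 233 against 23.4 and 15.1. The 524 cells with RARRES2 and TMEM100 and the 783 cells with FOLR1, CLDN3, DEFB1 and CXCL14 are called RARRES2-high and FOLR1-high, and neither was given a line name. Within the FOLR1-high line, 266 cells had a count of CXCL14 and 305 had DEFB1 or CD44 without CXCL14. The other 212 had none of the 3. Median depth was 5015, 6255 and 5312 counts per cell in the SK-OV-3-like, RARRES2-high and FOLR1-high lines, and 5018 and 6040 in the CXCL14 and DEFB1/CD44 cells. Mitochondrial and ribosomal protein genes took 6.99% and 27.1% of counts in the FOLR1-high line, against 2.94% and 12.1% in the SK-OV-3-like line. Markers of blood and vessel cells were nearly empty, with 14 PECAM1 counts as the highest of 6 such genes.

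There was 1 library, so no difference was tested. Levels are the summed counts of a line in CPM. The 95% intervals in brackets are exact Poisson intervals for levels, conditional binomial intervals for ratios and Clopper-Pearson intervals for shares. All of them cover counting error only and say nothing of how separate cultures would vary.

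NNMT moves a methyl group from S-adenosylmethionine to nicotinamide, which takes that vitamin out of NAD synthesis. Aldo-keto reductases and short-chain dehydrogenases use NADPH or NAD to interconvert carbonyls and alcohols, on substrates that include steroids, prostaglandins and lipid aldehydes. NQO1, GSTP1 and the AKR1C genes are widely used readouts of the NRF2 response to electrophiles, and ALDH1A1, a retinaldehyde dehydrogenase, is often used as a marker of stem-like cells in ovarian cancer.

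AKR1C1, AKR1C2 and AKR1C3 lie within 144434 bases, at chr10:4963253-5107686 in GRCh38. Their coding sequences were compared, and their noncoding bases were not. The last exons of AKR1C1, AKR1C2 and AKR1C3, of 5584, 2639 and 226 bases in their main transcripts, are mostly noncoding. AKR1C1 and AKR1C2 were 98.0% identical over 969 coding bases, with 19 differing bases and identical runs of up to 186 bases. AKR1C3 was 91.4% identical to AKR1C1 and 91.0% to AKR1C2. The 90 bases from coding position 73 to 162, from GENCODE release 29, are shown since they hold 10 of the AKR1C1 and AKR1C2 differences. Capitals mark the 19 positions that differ among the 3 genes.
AKR1C1: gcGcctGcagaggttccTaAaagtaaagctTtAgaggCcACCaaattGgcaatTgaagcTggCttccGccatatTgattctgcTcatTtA
AKR1C2: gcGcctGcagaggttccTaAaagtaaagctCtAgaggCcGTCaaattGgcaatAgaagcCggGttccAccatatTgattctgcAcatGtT
AKR1C3: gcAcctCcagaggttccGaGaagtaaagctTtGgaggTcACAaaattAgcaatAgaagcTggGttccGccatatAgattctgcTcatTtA
Counts of the 3 genes were nonetheless not divided between them. In each of the 3 lines, 100% of the AKR1C1, AKR1C2 and AKR1C3 estimates lay in cells whose sum for the gene was whole within 0.01, so each read was given to 1 gene. Whether it was the right one for reads that cover few of the capitals was not tested.

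NQO1 was counted on 6 listed transcripts, and 2 of the shorter ones each lack 1 of 2 coding exons, exon 4 or exon 5. These exons are shown because the transcript results below turn on them. Capitals are the exon, and the 12 lower-case bases on each side are its neighbours in the spliced transcript. ENST00000439109, a rarer form, lacks both, and ENST00000561500 also lacks exon 4. Exon 4 of 114 bases is at chr16:69714964-69715077 on the minus strand and is missing from ENST00000379046. Exon 5 of 102 bases is at chr16:69713028-69713129 on the same strand and is missing from ENST00000379047.
NQO1 exon 4: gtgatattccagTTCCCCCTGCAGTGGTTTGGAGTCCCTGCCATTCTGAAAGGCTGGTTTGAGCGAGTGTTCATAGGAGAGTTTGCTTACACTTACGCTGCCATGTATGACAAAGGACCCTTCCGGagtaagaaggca
NQO1 exon 5: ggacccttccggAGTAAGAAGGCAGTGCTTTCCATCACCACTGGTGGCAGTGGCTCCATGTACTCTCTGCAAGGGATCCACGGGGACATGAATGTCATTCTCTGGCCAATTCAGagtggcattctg
Both lengths are multiples of 3 bases, so either exon can be left out without a shift of the reading frame.

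Across lines, most of the 10 genes differed by 2-fold or more, in 7 of 9, 9 of 10 and 7 of 10 genes in the 3 pairs of lines, where 33.9%, 34.8% and 33.3% of all gene entries did. Between the SK-OV-3-like and RARRES2-high lines, 6 of the 9 genes with enough counts were at least 2-fold higher in SK-OV-3-like cells, where 20.8% of all 8882 gene entries were, and 1 was higher in RARRES2-high cells, where 13.1% were. Against the FOLR1-high line, 7 of 10 were at least 2-fold higher in SK-OV-3-like cells (25.8% of 8852 entries) and 2 were higher in FOLR1-high cells (8.98%). Between RARRES2-high and FOLR1-high cells, 3 of 10 were higher in the former (21.5% of 8893 entries) and 4 in the latter (11.8%). The median absolute log2 difference of the genes in these 3 pairs was 3.21, 3.93 and 2.67, against 0.68, 0.72 and 0.65 over all entries. The genes were chosen with earlier results of these data known, so the counts describe the choice as well as the lines.

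**Figure D1:**
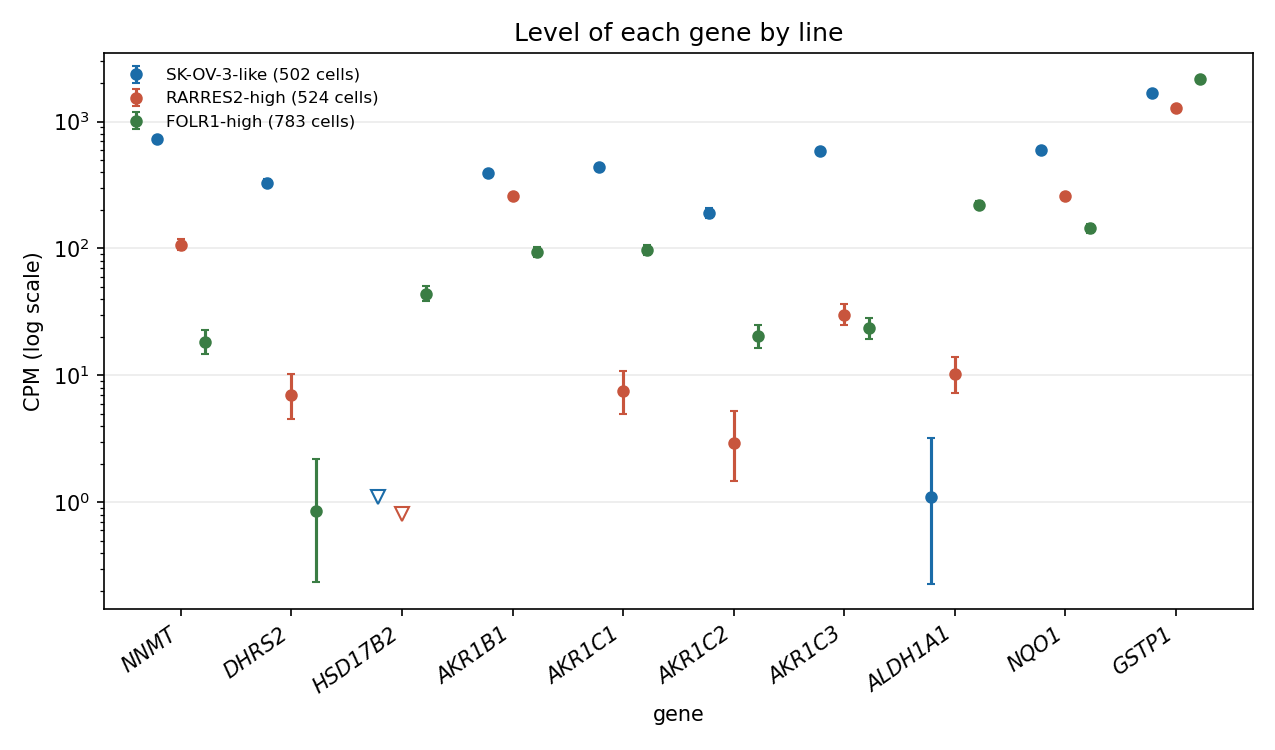
Level of each of the 10 genes (x axis) in CPM on a log scale (y axis) in the 3 lines; points are summed levels, bars are exact Poisson 95% intervals, and open triangles mark the level of 3 counts where a gene had none. The SK-OV-3-like point is the highest for NNMT, DHRS2, the 4 AKR1 genes and NQO1, and the FOLR1-high point is the highest for HSD17B2, ALDH1A1 and GSTP1.

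NNMT (ENSG00000166741, chr11:114257831-114313285, plus strand) was at 730 CPM [698 to 762] in SK-OV-3-like, 107 [96.6 to 118] in RARRES2-high and 18.3 [14.6 to 22.6] in FOLR1-high cells. The order of the 3 lines was clear of counting error, with a 6.83-fold step [6.13 to 7.62] from the first to the second and a 5.84-fold step [4.61 to 7.47] from the second to the third. Single SK-OV-3-like cells held 0 to 22 NNMT counts with a median of 3. After every cell was thinned to 2000 counts, 70.0% of SK-OV-3-like, 17.2% of RARRES2-high and 1.73% of FOLR1-high cells had an NNMT count, against 88.8%, 32.8% and 2.94% before thinning. The RARRES2-high and FOLR1-high levels were 14.6% and 2.51% of that in SK-OV-3-like cells. ERBB2 and TSPAN1 were at 3.99% and 3.49% of their own SK-OV-3-like levels in RARRES2-high cells. In FOLR1-high cells they were at 4.44% and 1.94%, with NNMT between them, and the marker rule itself keeps both low there. How much of such low levels was carried over from other cells was not tested. Only 23 FOLR1-high cells held the 85 NNMT counts of that line, 5 of them held 60.0%, and the level was 9.0 CPM among cells with at least 3 marker counts.

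DHRS2 (ENSG00000100867, chr14:23636335-23645639, plus strand) encodes a dicarbonyl reductase of the short-chain family. It was at 331 CPM [309 to 353] in SK-OV-3-like, 6.98 [4.56 to 10.2] in RARRES2-high and 0.862 [0.235 to 2.21] in FOLR1-high cells. SK-OV-3-like cells exceeded the other lines 47.3-fold [32.1 to 72.9] and 384-fold [149 to 1411]. The RARRES2-high and FOLR1-high levels were 2.11% and 0.261% of the SK-OV-3-like one, under the ERBB2 and TSPAN1 shares given above. The 26 RARRES2-high counts sat in 8 cells, 6 of them with fewer than 3 marker counts, and the 4 FOLR1-high counts in 4 cells. The RARRES2-high level was 3.36 CPM with at least 3 marker counts and 3.86 without the barcodes that Scrublet called doublets, against 352 and 333 CPM in SK-OV-3-like cells, so the first ratio is larger under both. DHRS2 was uneven even within its own line: 57.8% of SK-OV-3-like cells had a count and the highest cell had 31. The variance-to-mean ratio of its thinned counts was 2.20, where 480 other genes with a mean within 1.5 times of its own had a median of 1.07 and a 95th percentile of 1.37 in the same cells. Other members were uneven too: AKR1C1 was at 1.91 and AKR1C2 at 1.69, above the 95th percentiles of 1.74 and 1.30 for genes near their own means, as was NNMT in RARRES2-high cells at 2.75 against 1.40. In SK-OV-3-like cells NNMT was at 1.61 and NQO1 at 1.14, under their 95th percentiles of 2.13 and 1.82.

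HSD17B2 (ENSG00000086696, chr16:82035232-82098534, plus strand), the enzyme that oxidizes estradiol and testosterone to their less active keto forms, had 205 counts in FOLR1-high cells and none in the other lines. Its FOLR1-high level was 44.2 CPM [38.3 to 50.6], at least 40.1-fold higher than in SK-OV-3-like and at least 54.8-fold higher than in RARRES2-high cells when their 0 is set to 3 counts per line. No cell holding it had more than 6 counts. Outside the FOLR1-high line 1 count was found, in a barcode with mixed markers. After thinning, 7.86% [6.03 to 10.0] of FOLR1-high cells had a count. None of 473 SK-OV-3-like and 494 RARRES2-high cells did. This allows shares of up to 0.634% and 0.607%, taken as 3 divided by the number of cells, or 0.777% and 0.744% as Clopper-Pearson upper limits.

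AKR1B1 (ENSG00000085662, chr7:134442350-134459142, minus strand) encodes aldose reductase, which turns glucose into sorbitol. Its levels were 391 CPM [368 to 416], 258 [242 to 275] and 94.1 [85.5 to 103] in the SK-OV-3-like, RARRES2-high and FOLR1-high lines. The first step of that order was 1.52-fold [1.39 to 1.66], under the 2-fold limit, and the second was 2.74-fold [2.44 to 3.07]. It was the aldo-keto reductase of this group with the smallest spread between lines.

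The 3 AKR1C genes encode hydroxysteroid dehydrogenases: AKR1C1 inactivates progesterone, AKR1C2 dihydrotestosterone, and AKR1C3 forms testosterone and prostaglandin F. AKR1C1 (ENSG00000187134, chr10:4963253-4983283, plus strand) was at 435 CPM [411 to 461] in SK-OV-3-like, 7.52 [5.0 to 10.9] in RARRES2-high and 96.9 [88.2 to 106] in FOLR1-high cells. AKR1C2 (ENSG00000151632, chr10:4987400-5004023, minus strand) was at 190 [174 to 207], 2.95 [1.47 to 5.28] and 20.5 [16.6 to 25] CPM in the same order. AKR1C3 (ENSG00000196139, chr10:5048812-5107686, plus strand) was at 589 [560 to 618], 30.1 [24.8 to 36.2] and 23.5 [19.3 to 28.3] CPM. All 3 were highest in SK-OV-3-like cells, and the lower lines differed in order. AKR1C1 and AKR1C2 were 12.9-fold [8.80 to 19.6] and 6.93-fold [3.70 to 14.4] higher in FOLR1-high than in RARRES2-high cells. With equal weight per cell the gaps were smaller, at 97.9 against 11.3 CPM for AKR1C1 and 22.9 against 5.46 for AKR1C2. AKR1C3 was 1.28-fold higher in RARRES2-high cells, with an interval of 0.975 to 1.68 that includes no difference. The FOLR1-high level was 22.3% of the SK-OV-3-like one for AKR1C1 and 10.8% for AKR1C2, and 3.99% for AKR1C3. The RARRES2-high levels were 1.73%, 1.55% and 5.11%. ERBB2 and TSPAN1 were at 4.44% and 1.94% in FOLR1-high and 3.99% and 3.49% in RARRES2-high cells. AKR1C3 in FOLR1-high cells lay between the 2 markers, and AKR1C1 and AKR1C2 in RARRES2-high cells lay under both. How much of these levels was carried over from other cells was not tested.

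At 2000 counts a cell, 19.5% [16 to 23.3] of 473 SK-OV-3-like cells had a count of none of the 3 AKR1C genes, 32.1% had 1 of them, 36.8% had 2 and 11.6% [8.88 to 14.9] had all 3. All 3 were without a count in 92.9% of RARRES2-high and 83.1% of FOLR1-high cells. Over the 502 SK-OV-3-like cells, the gene most like AKR1C1 among 902 compared was AKR1C2 (Pearson r = 0.43), followed by AKR1C3 (0.37) and SLPI (0.35), a secreted protease inhibitor. AKR1C2 and AKR1C3 had an r of 0.39, FTL, the ferritin light chain, had an r of 0.30 with AKR1C3, and SLPI also led the list for NQO1 (0.33). All cells share 1 library and differ in depth, whose part in these correlations was not tested. Reads given to the wrong AKR1C gene could also add to them and to the cells with 2 or 3 of the genes, which was not tested either. For NNMT, DHRS2 and AKR1B1 in that line, and for ALDH1A1 and GSTP1 in FOLR1-high cells, no gene reached an r of 0.3.

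ALDH1A1 (ENSG00000165092, chr9:72900662-72953056, minus strand) had the reverse order of lines. It was at 1.10 CPM [0.227 to 3.22] in SK-OV-3-like, 10.2 [7.22 to 14.0] in RARRES2-high and 221 [208 to 235] in FOLR1-high cells. The FOLR1-high level was 201-fold [68.5 to 976] that of SK-OV-3-like cells, which had 3 counts, and 21.7-fold [15.7 to 30.8] that of RARRES2-high cells. Of the 38 RARRES2-high counts, 60.5% came from 5 cells, and the level there was 5.31 CPM when 90% of marker counts were required. ALDH1A1 was patchy in the FOLR1-high line: 25% of thinned cells had a count, the highest cell had 28 counts, and the variance-to-mean ratio was 2.12 against a 95th percentile of 1.36 over 556 other genes with a mean within 1.5 times of its own. ALDH1A3, a second retinaldehyde dehydrogenase, was at 136 CPM in RARRES2-high cells and at 1.83 and 2.15 CPM in SK-OV-3-like and FOLR1-high cells.

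NQO1 (ENSG00000181019, chr16:69706996-69726951, minus strand), the quinone reductase, was at 596 CPM [568 to 626], 258 [242 to 275] and 144 [133 to 155] in SK-OV-3-like, RARRES2-high and FOLR1-high cells. SK-OV-3-like cells were 2.31-fold [2.13 to 2.50] above RARRES2-high and 4.15-fold [3.79 to 4.55] above FOLR1-high cells. RARRES2-high cells were 1.80-fold [1.63 to 1.99] above FOLR1-high cells. That ratio lay close to the limit and crossed it in some alternatives: the levels were 259 and 129 CPM without the Scrublet calls, just past 2-fold, and the ratio was 2.03-fold with equal weight per cell. With mitochondrial and ribosomal protein genes left out of the totals, the levels were 317 and 218 CPM. GSTP1 (ENSG00000084207, chr11:67583595-67586660, plus strand), a cytosolic glutathione transferase, was present in nearly every cell of each line. It was at 1689 CPM [1640 to 1738], 1275 [1239 to 1312] and 2148 [2106 to 2190] in the same order, and no pair of lines reached 2-fold. With mitochondrial and ribosomal protein genes left out of the totals, it was at 1565 CPM in RARRES2-high and 3258 in FOLR1-high cells, 2.08-fold higher in the latter and past the limit. The share of thinned cells with a GSTP1 count was 92.0%, 88.7% and 96.1%.

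**Figure D2:**
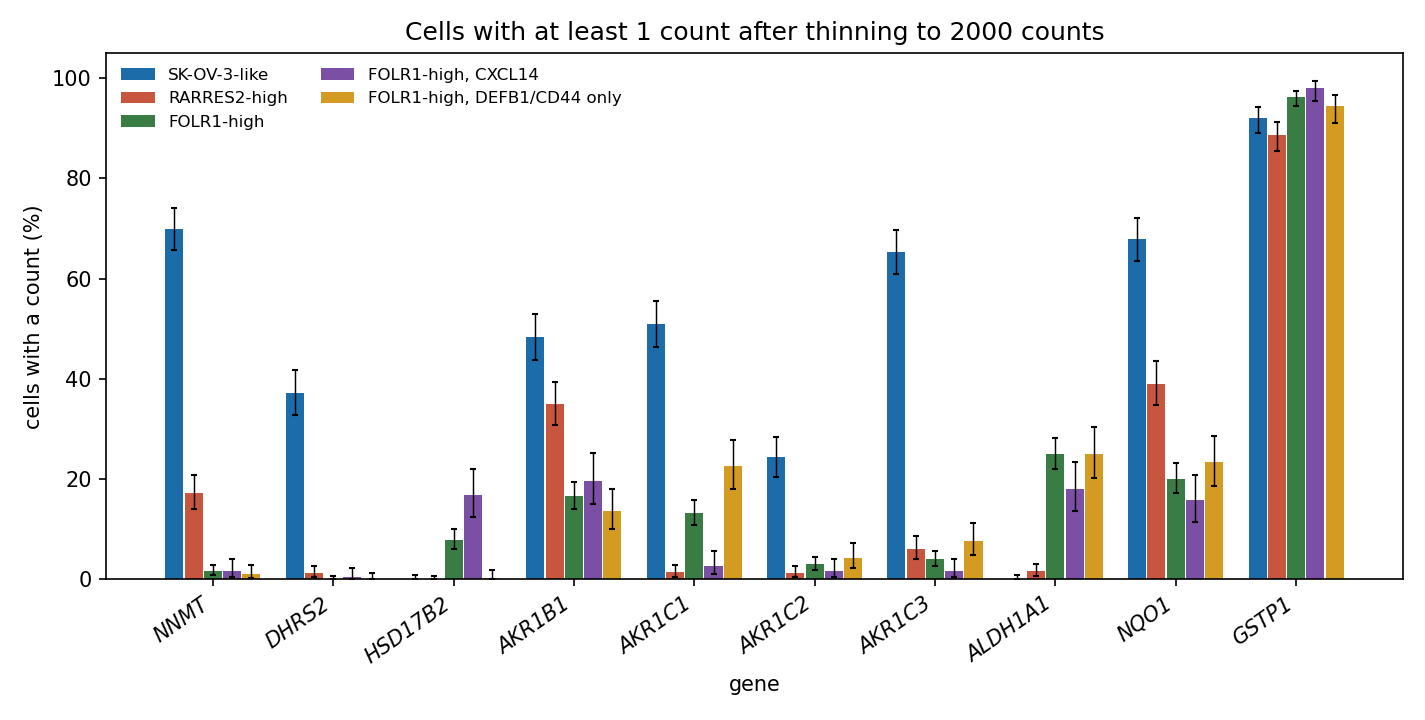
Share of cells (y axis, percent) with at least 1 count of each gene (x axis) after every cell was thinned to 2000 counts, for the 3 lines and the 2 groups of FOLR1-high cells; bars on the columns are Clopper-Pearson 95% intervals. HSD17B2 is seen in 16.9% of CXCL14 cells and in no SK-OV-3-like or RARRES2-high cell, and GSTP1 is seen in 88.7% to 96.1% of the cells of the 3 lines.

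Within the FOLR1-high line, cells with CXCL14, a chemokine, were set against cells with DEFB1, an epithelial defensin, or CD44, the hyaluronan receptor, and no CXCL14. Of 9 genes with enough counts, HSD17B2 was at least 2-fold higher in CXCL14 cells, where 3.71% of 8683 gene entries were. AKR1C1, AKR1C2 and AKR1C3 were at least 2-fold higher in DEFB1/CD44 cells, where 9.1% of entries were. In both directions together these were 4 of 9 genes, against 12.8% of entries. The other 5, NNMT, AKR1B1, ALDH1A1, NQO1 and GSTP1, were within 2-fold. NNMT, with 21 and 33 counts in 6 and 8 cells, had no stable order between these groups. It was 8.36-fold higher in DEFB1/CD44 cells with 90% of marker counts, and at least 6.17-fold higher there without the Scrublet calls, where CXCL14 cells had 0 counts. It was 3.74-fold higher in CXCL14 cells with at least 3 marker counts and 7.62-fold higher there with states taken after thinning.

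HSD17B2 was at 103 CPM [87.3 to 121] in CXCL14 cells and 2.98 [1.09 to 6.49] in DEFB1/CD44 cells, a ratio of 34.5 [15.5 to 95.5] from 153 and 6 counts. Of the 131 FOLR1-high cells with HSD17B2, 98 had CXCL14, 30 had none of the 3 state genes and 3 had DEFB1 or CD44 alone. When states were taken after thinning, the DEFB1/CD44 level was 6.75 CPM and the CXCL14 level 117. The CXCL14 cells were the higher ones under both ways of drawing the groups.

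AKR1C1 was at 159 CPM [142 to 178] in DEFB1/CD44 cells and 30.9 [22.7 to 41.3] in CXCL14 cells, a 5.14-fold difference [3.77 to 7.17]. Of the 46 AKR1C1 counts in CXCL14 cells, 30 came from the 25 cells that also had DEFB1 or CD44, and 16 of these from 1 cell. Without that cell the CXCL14 level was 20.4 CPM. In the 241 cells with CXCL14 alone the level was 13.0 CPM [7.41 to 21.1]. Their median depth was 4863 counts, against 11084 in the 25 cells that also had DEFB1 or CD44. With states taken after thinning, the levels were 181 CPM in DEFB1/CD44 and 13.8 CPM in CXCL14 cells. AKR1C2 was at 29.8 CPM against 6.05, 4.93-fold [2.43 to 11.3] higher in DEFB1/CD44 cells, and AKR1C3 at 35.8 against 11.4, 3.13-fold [1.83 to 5.67] higher. The CXCL14 level of AKR1C3 was 5.88 CPM with 90% of marker counts and 6.32 without the Scrublet calls, against 36.3 and 31.7 in DEFB1/CD44 cells. In cells with DEFB1 alone AKR1C3 was at 13.6 CPM [4.97 to 29.5], near the 11.3 [6.20 to 19.0] of cells with CXCL14 alone. It was at 36.6 [24.3 to 52.9] with CD44 alone and 47.3 [33.5 to 65.0] with DEFB1 and CD44, so its higher level lay in the CD44 cells.

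**Figure D3:**
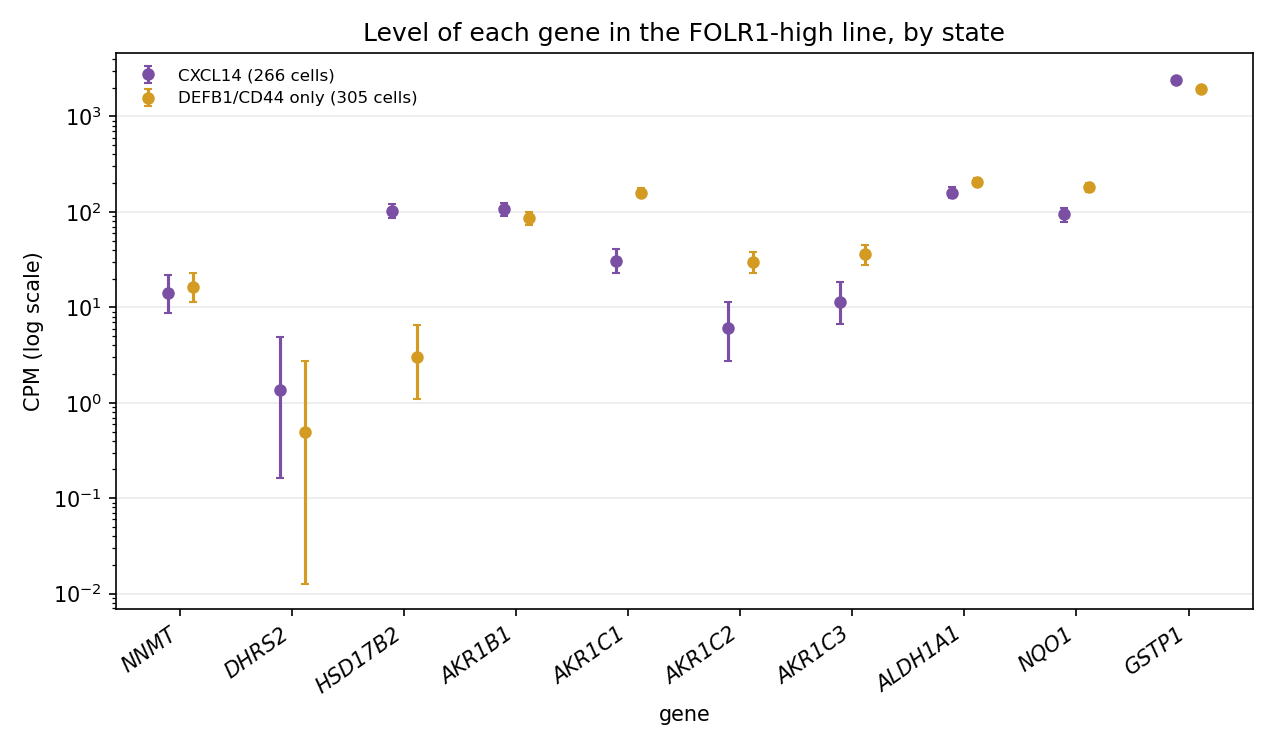
Level of each of the 10 genes (x axis) in CPM on a log scale (y axis) in FOLR1-high cells with CXCL14 and with DEFB1 or CD44 only; bars are exact Poisson 95% intervals. HSD17B2 sits at 103 against 2.98 and AKR1C1 at 30.9 against 159, while ALDH1A1, AKR1B1 and GSTP1 sit close together.

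NQO1 was at 181 CPM [163 to 201] in DEFB1/CD44 cells and 94.2 [79.2 to 111] in CXCL14 cells, a 1.92-fold difference [1.58 to 2.35], which passed the limit at 2.02-fold when CXCL14 cells needed at least 2 counts of CXCL14. One DEFB1/CD44 cell alone held 58 NQO1 counts, and without it the level was 154 CPM. ALDH1A1 was at 206 CPM [187 to 227] and 159 [140 to 181] in the same groups, and the highest level was in the cells with none of the 3 state genes, at 327 [295 to 362]. Splitting the DEFB1/CD44 cells further, ALDH1A1 was at 113 CPM [83.8 to 149] in 82 cells with DEFB1 alone and 276 [240 to 315] in 117 cells with CD44 alone. AKR1C1 was at 165 [129 to 207] and 115 [92.2 to 142] CPM in those cells, and at 198 [168 to 231] in the 106 cells with both. AKR1B1, at 107 CPM against 85.5, and GSTP1, at 2434 against 1936, were slightly higher in CXCL14 cells, by 1.25-fold [1.00 to 1.56] and 1.26-fold [1.20 to 1.32].

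**Figure D4:**
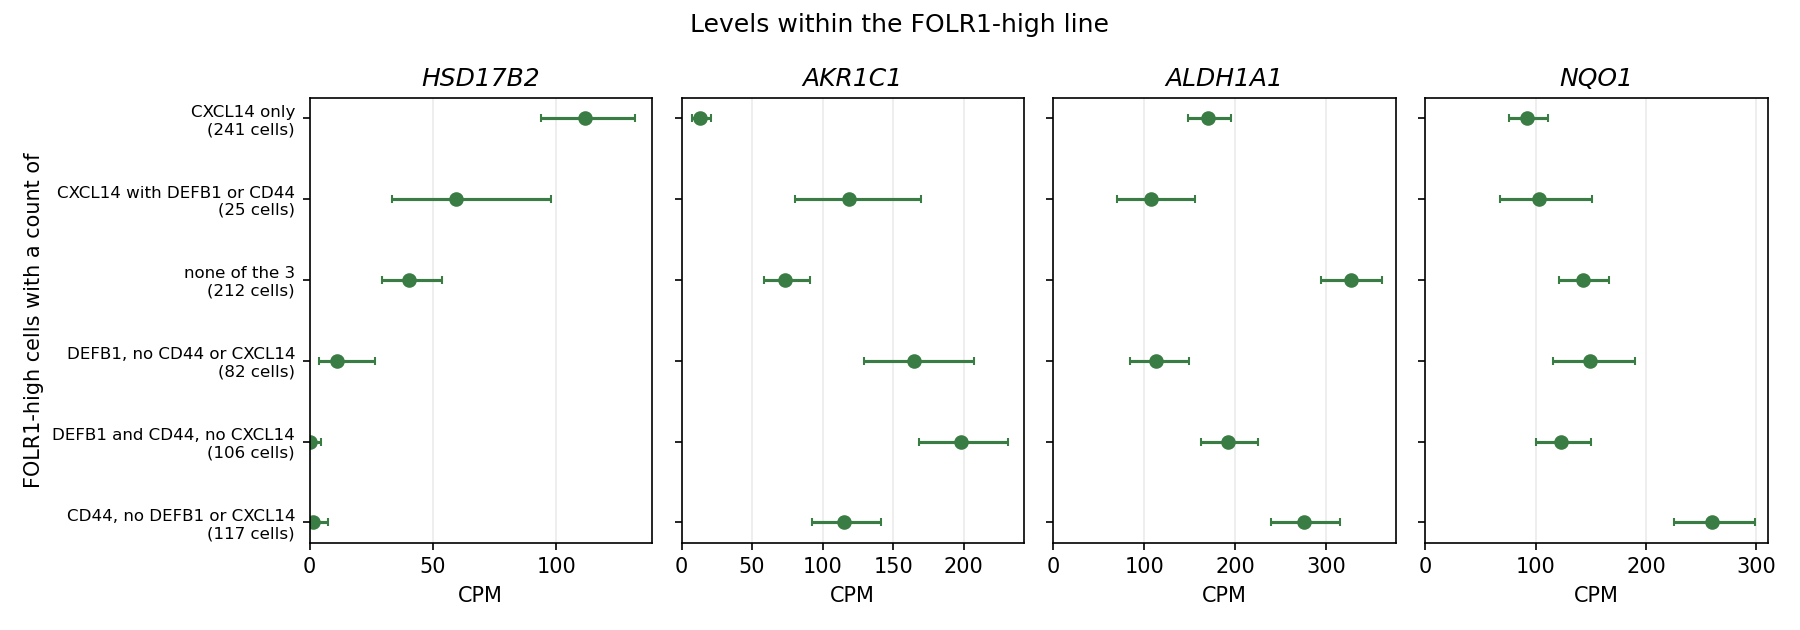
Levels in CPM (x axis of each panel) of HSD17B2, AKR1C1, ALDH1A1 and NQO1 in FOLR1-high cells split by which of CXCL14, DEFB1 and CD44 had a count (y axis, with cell numbers); bars are exact Poisson 95% intervals. HSD17B2 is highest in cells with CXCL14 only, AKR1C1 in cells with DEFB1 and CD44, and ALDH1A1 in cells with none of the 3.

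Long reads also gave each gene's transcripts. A gene was compared when both lines had at least 50 counts of it and it had at least 2 listed transcripts, and a difference of 20 percentage points in any transcript's share was counted. Between SK-OV-3-like and FOLR1-high cells 6 of the 10 genes could be compared, and NNMT was the 1 that passed, where 2.22% of 4236 genes did, and it passed through 1 cell, as described below. Of the 4 genes compared between SK-OV-3-like and RARRES2-high cells and the 4 between RARRES2-high and FOLR1-high cells, NNMT, AKR1C3, NQO1 and GSTP1 in both, 0 passed, where 2.57% and 3.04% of genes did. Between CXCL14 and DEFB1/CD44 cells ALDH1A1, NQO1 and GSTP1 were compared and 0 passed, where 0.495% of 2422 genes did.

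NNMT has 2 listed transcripts with the same 792 coding bases. ENST00000299964 has 3 exons and starts at chr11 position 114295825. ENST00000535401 starts upstream at 114257831, with 2 more noncoding exons, and ends with a longer last exon. The share of ENST00000535401 was 12.5% [11.0 to 14.0] in SK-OV-3-like, 24.6% [20.5 to 29.2] in RARRES2-high and 37.5% [27.4 to 48.8] in FOLR1-high cells. Most of these estimates were fractional. Over counts that sat whole on 1 transcript, the shares were 23.1% of 281, 30.8% of 120 and 41.2% of 17 counts, and the difference between the first and the last fell under 20 points. The FOLR1-high share rests on 1 cell, a DEFB1/CD44 cell with 21 NNMT counts, of which 19.1 were on ENST00000535401. Without it the share was 19.98% [11.3 to 32.2] of 64 counts, and NNMT no longer passed the limit.

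NQO1 was mostly the full-length ENST00000320623, with 74.1% [71.9 to 76.2], 71.9% [69.0 to 74.8] and 76.3% [72.9 to 79.5] of counts in SK-OV-3-like, RARRES2-high and FOLR1-high cells. ENST00000379046, which lacks exon 4, took 13.4% [11.8 to 15.2], 17.9% [15.5 to 20.4] and 17.1% [14.3 to 20.2]. ENST00000379047, which lacks exon 5, took 10.4% [8.95 to 12] in SK-OV-3-like, 7.22% [5.62 to 8.99] in RARRES2-high and 3.94% [2.56 to 5.66] in FOLR1-high cells. Over whole counts the shares of ENST00000379047 were 11.9%, 8.73% and 1.59%, the last from 6 of 378 counts, in the same order. ENST00000439109, without both exons, took 1.73%, 2.75% and 1.87% of counts, and ENST00000561500 under 1% in each line. AKR1C2 had 91.0% of its counts on ENST00000380753 in SK-OV-3-like and 80.9% in FOLR1-high cells, 95.4% and 97.4% over whole counts, so the order of the lines turned with the counts used. ENST00000380554 of AKR1C3 held 92.7% to 97.6% of counts in the 3 lines, and ENST00000398606 of GSTP1 held 99.5% to 99.9%.

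**Figure D5:**
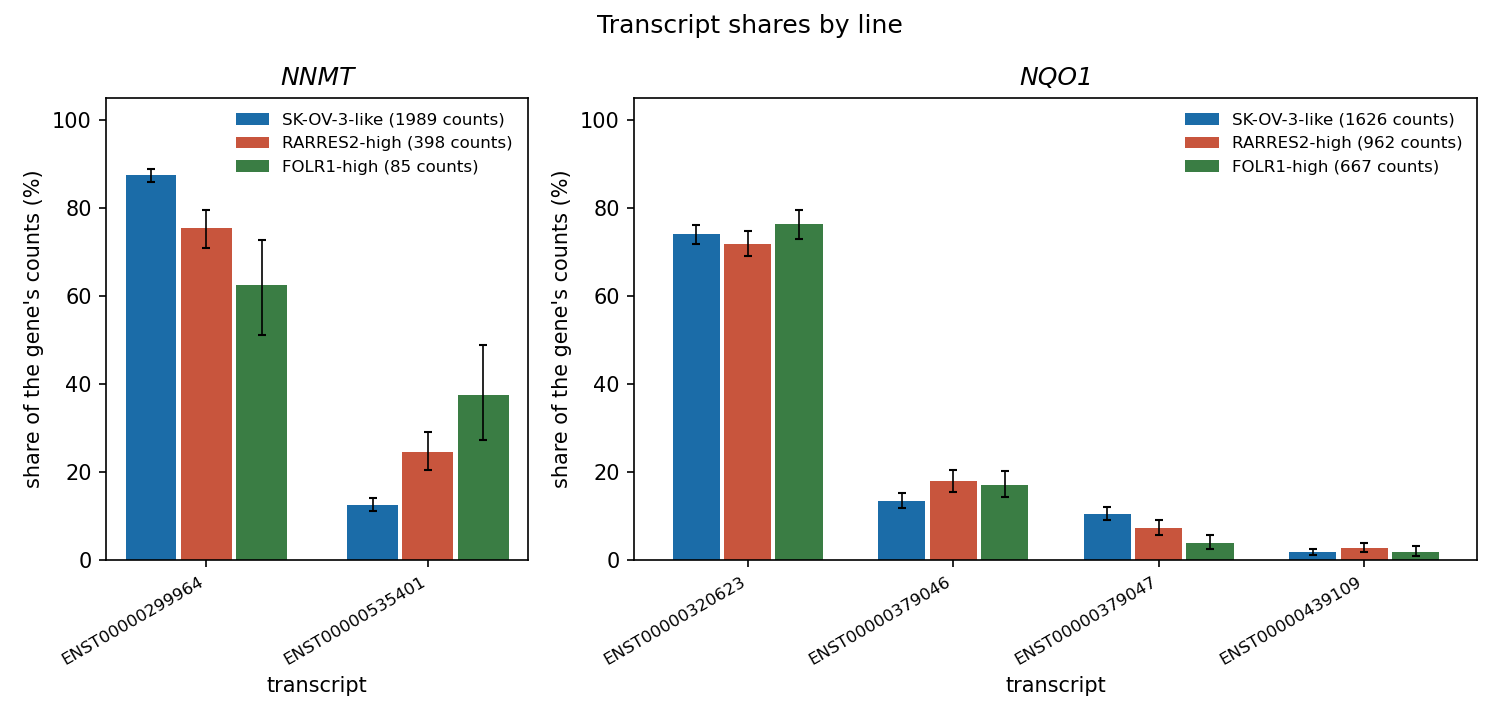
Share of the gene's counts (y axis, percent) on each transcript (x axis) of NNMT and of the 4 most used transcripts of NQO1, by line; bars on the columns are Clopper-Pearson 95% intervals and the legend gives the gene's counts. The upstream NNMT transcript ENST00000535401 takes 12.5%, 24.6% and 37.5% in the 3 lines, the last 19.98% without 1 cell, and ENST00000379047, the NQO1 form that lacks exon 5 but has exon 4, takes 10.4%, 7.22% and 3.94%.

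Related genes were counted by lists of whole pathways. Of 23 NRF2 regulator and target genes with enough counts, none of which is among the 10, 12 (52.2%) were at least 2-fold higher in SK-OV-3-like than in RARRES2-high cells and 1 (4.35%) was lower, against 20.8% and 13.1% of all gene entries. Higher levels in SK-OV-3-like than in FOLR1-high cells were seen for 9 of 23 (39.1%), and 0 were lower, against 25.8% and 8.98% of all entries. In RARRES2-high against FOLR1-high cells 4 (17.4%) were higher and 8 (34.8%) lower, against 21.5% and 11.8%. The list median log2 difference was 1.04, 0.56 and 0.10 in these 3 pairs, against 0.21, 0.45 and 0.20 over all entries, so it stood apart only in the first. NFE2L2, the gene of NRF2 itself, in an entry shared with another gene, was at 213, 98.3 and 69.6 CPM in SK-OV-3-like, RARRES2-high and FOLR1-high cells. The carbonyl reductase CBR1 was at 606, 84.0 and 133 CPM, and TKT, transketolase, was instead highest in FOLR1-high cells, at 868, 277 and 1479. EPHX1, the microsomal epoxide hydrolase, was at 209, 22.6 and 117 CPM, and PTGR1, a prostaglandin reductase, at 137, 65.5 and 176. In FOLR1-high cells, 6 of the 23 (26.1%) were at least 2-fold higher in DEFB1/CD44 than in CXCL14 cells and 0 were lower, against 9.1% and 3.71% of all entries, with a list median log2 difference of -0.60 (CXCL14 minus DEFB1/CD44) against -0.11 over all entries.

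Of 15 genes of NAD and methyl donor metabolism, 4 (26.7%) were at least 2-fold higher in SK-OV-3-like than in RARRES2-high cells and 2 (13.3%) lower, near the 20.8% and 13.1% of all entries. Against FOLR1-high cells 7 (46.7%) were higher and 2 (13.3%) lower, where 25.8% and 8.98% of all entries were. The median log2 difference of the list was 0.13 and 0.44 in these pairs, against 0.21 and 0.45 over all entries. Between RARRES2-high and FOLR1-high cells 1 (6.67%) was higher and 0 lower, under the 21.5% and 11.8% of all entries. NAPRT, which makes NAD from nicotinic acid, was at 82.5 and 82.2 CPM in SK-OV-3-like and RARRES2-high cells and 2.15 in FOLR1-high cells. QPRT, which feeds NAD synthesis from tryptophan and sits in an entry shared with another gene, was at 607, 91.0 and 149 CPM in the 3 lines. Within FOLR1-high cells, 2 of the 15 (13.3%) were higher in CXCL14 and 1 (6.67%) in DEFB1/CD44 cells, against 3.71% and 9.1% of all entries. The latter was QPRT, at 236 CPM in DEFB1/CD44 and 31.6 in CXCL14 cells. Higher in CXCL14 cells were NAPRT, with 5 counts against 3, and AHCYL2, with 30 against 11. MAT2A, which makes the methyl donor S-adenosylmethionine, was at 121, 76.8 and 59.7 CPM, and AHCYL1 at 294, 91.8 and 146. NAMPT, which makes NAD from nicotinamide, and AHCY, which clears the product of methyl transfer, did not pass the limit and were chosen after their values were seen. NAMPT was at 49.9 CPM [41.9 to 59.0] in SK-OV-3-like, 54.0 [46.8 to 62.0] in RARRES2-high and 62.7 [55.7 to 70.3] in FOLR1-high cells, with intervals that overlap. AHCY was lowest in SK-OV-3-like cells, at 87.7 CPM [76.9 to 99.5], against 118 [108 to 130] and 131 [121 to 142] in the same order.

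Of 9 other steroid enzymes and receptors with enough counts, 4 (44.4%) were higher and 2 (22.2%) lower in SK-OV-3-like than in RARRES2-high cells, where 20.8% and 13.1% of all entries were. Against FOLR1-high cells 3 (33.3%) were higher and 2 (22.2%) lower, where 25.8% and 8.98% were. All 9 passed between RARRES2-high and FOLR1-high cells, 5 (55.6%) higher in the former and 4 (44.4%) in the latter, against 21.5% and 11.8% of all entries. With mitochondrial and ribosomal protein genes left out of the totals, every log2 difference in this pair shifts by -0.31. The list median log2 difference, 1.07, then falls under the 2-fold limit, so not all 9 pass with those totals. HSD17B4, which oxidizes estradiol in peroxisomes, was at 71.5, 7.79 and 47.6 CPM in SK-OV-3-like, RARRES2-high and FOLR1-high cells, and HSD17B10 at 112, 187 and 89.2. HSD17B12, in an entry shared with 2 other genes, was at 81.4, 84.0 and 36.8 CPM. NR3C1, the glucocorticoid receptor, was at 67.5, 53.2 and 23.1 CPM. Inside the FOLR1-high line 0 of the 8 with enough counts were higher in CXCL14 cells and 1 was lower, where 3.71% and 9.1% of all entries were. This was NR3C1, which was at 38.8 CPM in DEFB1/CD44 and 5.38 in CXCL14 cells, the opposite order to HSD17B2.

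The next lists are read against the same shares of all entries: 20.8% higher and 13.1% lower in SK-OV-3-like than in RARRES2-high cells, and 25.8% and 8.98% than in FOLR1-high cells. Among 10 other short-chain dehydrogenases, 5 (50%) were higher and 1 (10%) lower in SK-OV-3-like than in RARRES2-high cells, and 0 were higher and 1 (10%) lower than in FOLR1-high cells. DHRS7 was at 78.5, 11.3 and 56.9 CPM, DHRS3, a retinaldehyde reductase, at 12.8, 85.1 and 30.4, and RDH11, in an entry shared with 2 others, at 231, 100.4 and 149.5. Of 12 other aldehyde dehydrogenases, 4 (33.3%) were higher and 1 (8.33%) lower than in RARRES2-high cells, and 3 (25%) higher and 2 (16.7%) lower than in FOLR1-high cells. Of 10 other glutathione transferases, among which GSTM2 and GSTM4 share 1 entry and count as 2, 4 (40%) were higher and 0 lower than in RARRES2-high cells, and 2 (20%) were higher and 5 (50%) lower than in FOLR1-high cells. Between RARRES2-high and FOLR1-high cells, where 21.5% of all entries were higher in the former and 11.8% in the latter, the counts were 1 and 3 of the 10 short-chain dehydrogenases, 1 and 3 of the 12 aldehyde dehydrogenases and 0 and 6 of the 10 glutathione transferases. GSTM3 was at 70.1, 5.37 and 447 CPM in SK-OV-3-like, RARRES2-high and FOLR1-high cells, MGST3 at 776, 420 and 375, MGST1 at 101, 3.76 and 23.3, and GSTK1 at 50.3, 49.4 and 101. Of the other aldo-keto reductases 2 had enough counts, and AKR1A1 was at 72.3, 20.9 and 96.3 CPM.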

How the data were processed

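Per the series' design text and the values, the authors deposited estimated counts per transcript and barcode from the PromethION library, quantified with Isosceles. Build GRCh38 and Cell Ranger 6.0.1 are named in the submitters' processing notes. Not given in the sources used here were the aligner, the Isosceles version, the annotation release and whether molecular identifiers were collapsed. Of the matrix values, 39.8% were whole.

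Estimated counts were summed per gene entry and rounded (Python 3.11.15, numpy 2.4.6, scipy 1.17.1, scanpy 1.11.5). Differences of at least 2-fold were counted over gene entries with at least 100 counts, with sums of 0 set to 3 counts. No doublet filter was applied beyond the marker rule, and Scrublet at an expected rate of 0.02 was an alternative. Correlations used log counts per 5000. The rules were checked on simulated counts. Exons came from GENCODE release 29.

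The members and lists were chosen with earlier results of these data known. Named beyond the 10 genes were the 3 genes most alike over cells where r was at least 0.3, and up to 5 genes per list past 2-fold with at least 500 counts and the most counts.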

Additional observations from a re-analysis of the deposited data

Results flagged for a closer look

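Barcodes outside the 3 lines also held counts of the 10 genes. The 220 barcodes with mixed markers held 4664 of them, the 100 barcodes with no marker count 1476, and the 333 barcodes under 1000 counts 192. NNMT was at 376 CPM [345 to 408] in mixed barcodes and 954 [856 to 1061] in those with no marker count, against 730 in SK-OV-3-like cells. DHRS2 was at 111 CPM in mixed barcodes and 292 in those with no marker count. AKR1C3 was at 222 and 211 CPM, and ALDH1A1 at 17.4 and 55.6. Barcodes with no marker count had a median depth of 3181.5 counts. The origin of these counts was not tested.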

How the results depend on the processing

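Of 47 counts of genes past a limit recomputed under the alternatives, 43 stayed within 1.5 times. The other 4 were the count of genes past the transcript share limit between SK-OV-3-like and FOLR1-high cells: 1 gene, NNMT, became 0 with a limit of 30 points and 0 without the FOLR1-high cell with most NNMT counts, an alternative chosen after seeing the data. It also became 0 with whole counts only and with at least 100 counts in both lines, where NNMT, with 17 whole and 85 estimated counts in FOLR1-high cells, was no longer compared. Within those 43, at the 2-fold limit, 1 gene was gained in some alternatives: NQO1 or GSTP1 between RARRES2-high and FOLR1-high cells (7 to 8 genes), and NNMT or NQO1 between CXCL14 and DEFB1/CD44 cells (4 to 5 genes), with the values given above. Of 328 recomputed levels, 249 stayed inside their counting interval and 44 moved by more than 1.5 times, 28 of these from 20 or more counts and 4 to 0. Leaving mitochondrial and ribosomal protein genes out of the totals shifted the median log2 difference of all gene entries by -0.37 between SK-OV-3-like and FOLR1-high cells, by -0.31 between RARRES2-high and FOLR1-high cells and by 0.11 between CXCL14 and DEFB1/CD44 cells. No sign changed among the 10 genes with these totals, and GSTP1 joined the genes higher in FOLR1-high than in RARRES2-high cells, from 4 to 5. NNMT in the CXCL14 cells went from 14.1 CPM to 0 without the Scrublet calls and to 2.20 with 90% of marker counts, and in DEFB1/CD44 cells from 16.4 to 3.84 with at least 3 marker counts. That marker minimum for FOLR1-high cells split by all 3 state genes was chosen after seeing the data. Of 110 transcript shares, 79 stayed inside their interval. Genes with fewer than 20 counts in a group are limited by depth. No paired analysis was possible because each platform had 1 library and no result came from a test.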
